A study of Danio rerio with 12 samples.

Results

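The genes of the eukaryotic translation initiation factors (eIFs) and elongation factors (eEFs) were described in the muscle of fasted and refed zebrafish. A gene was taken when its name in the deposited table began with eif or eef followed by a digit, and genes of the eIF4E-binding proteins (eif4ebp) were left out. The rule found 79 of the 25281 genes of the table, 62 for initiation and 17 for elongation, in 23 factor groups. It also took enzymes that modify the factors, such as the eIF2 alpha kinases and the eEF2 kinase, because they carry the same names.

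Wild type zebrafish were used, from which the trunk muscle behind the anus, up to the tail fin, was collected. The labels give an age of 2 to 3 months, whereas by the methods of the study the fish were 3 months old when bought and were then kept for more than a month, so the sources differ. Fish were sampled after 24 h without food (Fast), at 3 h after food was given again (Refed_3h) and at 8 h after it (Refed_8h), with 4 separate fish in each group and 12 libraries in all. By the methods of the study each group held both sexes in equal number, and the sex of single fish is not given. No group was sampled before the fast, and each group was taken at its own time of day, so refeeding and time of day cannot be told apart. The tissue was a bulk sample, in which fewer cells of a type and less RNA per cell cannot be told apart.

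During initiation, eIF2 brings the initiator tRNA to the small ribosomal subunit, eIF1, eIF1A and eIF3 hold that subunit open for the mRNA, and the cap-binding eIF4E, the scaffold eIF4G and the helicase eIF4A bring the capped mRNA to it. The GTPase eIF5B then joins the large subunit, eEF1A delivers the aminoacylated tRNAs, and eEF2 moves the ribosome along the mRNA. Feeding is known to raise protein synthesis in muscle, largely through phosphorylation of proteins that bind or modify these factors, which RNA levels do not show.

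After 3 h of refeeding a small set of initiation factor genes stood higher than in Fast, and most of the set was lower again at 8 h than at 3 h. The set held the cap-binding proteins eif4ea, eif4e1c and eif4e2, the helicase eif4a1a and the scaffolds eif4g1a and eif4g2a, together with eif1axa, eif5b and the eIF2 alpha kinase eif2ak1. Their increases were 1.43-fold to 2.37-fold on the TMM scale of the test, and were smaller on log2(TPM + 1), where limma called 1 of the 9, eif4e1c. None of the 17 elongation factor genes and none of the tested subunits of eIF2, eIF2B and eIF3 passed the edgeR test in any comparison. Of all tested genes 4.9% passed in Refed_3h against Fast, 1.4% in Refed_8h against Fast and 6.41% in Refed_8h against Refed_3h. At these shares few calls would fall in sets this small. For Refed_3h against Fast limma on log2(TPM + 1) called eef2b, eif3ba, eif3c, eif3s10 and eif3s6ip lower. DESeq2 called eif3s10 lower and eif3jb higher there.

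Library totals were 11929140 to 18446239 counts, and the factor genes took 1.47% to 2.13% of them. Of the 79 members, 76 passed the filter on low counts and were tested among 16745 genes with the quasi-likelihood test of edgeR, a call being an adjusted p under 0.05 after Benjamini-Hochberg adjustment over those genes. EIF3J, eif3bb and eif4e1b did not pass the filter. Values per fish are given in the order of replicates 1 to 4. They are either TPM, which corrects for gene length, or CPM scaled with the TMM factors of edgeR (scaled CPM). Scaled CPM is relative to the library's total over the tested genes times its TMM factor, and is the scale on which the test was made. In the comparison of Refed_3h with Fast, 9 members were higher and 1 was lower, where 2.28% of all tested genes were higher and 2.63% were lower. In the comparison of Refed_8h with Fast 0 members were called in edgeR, where 0.543% of all tested genes were higher and 0.854% lower. There 4 of the 76 members had an unadjusted p under 0.05, a smaller share than the 2169 of all 16745 tested genes. DESeq2 called 2 subunits of eIF3 lower there, eif3s10 and eif3s6ip. In the comparison of Refed_8h with Refed_3h, 1 member was higher and 9 were lower, where 3.06% of all tested genes were higher and 3.36% lower. The 3 comparisons share libraries, so the Refed_3h fish enter both comparisons with calls. In each comparison the median standard error (SE) of the log2 fold change was 0.15 for the members and 0.25 for all tested genes. At an equal fold change a member was therefore called more readily, and the shares of all genes are not a matched background.

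The median log2 fold change of the members was 0.16 for Refed_3h against Fast, -0.04 for Refed_8h against Fast and -0.16 for Refed_8h against Refed_3h, where the medians of all tested genes were -0.01, 0.00 and 0.01. TMM scaling itself places the bulk of all genes near 0, so the medians of all genes on this scale are not an observed background. On the scale of log2(TPM + 1) these medians lay elsewhere. TPM does not use the TMM factors, which were 0.790 to 0.989 in Refed_3h fish and 1.02 to 1.21 in Fast fish. For Refed_3h against Fast the median was -0.19 for the members and -0.26 for all genes, and for Refed_8h against Refed_3h it was 0.08 for the members and 0.18 for all genes. With no filter on TPM these medians were -0.19 for the members and -0.14 for all genes in the first comparison. In the second they were 0.09 and 0.10, so the order of members and all genes depended on the filter for Refed_3h against Fast. The summed TPM of all members was 10431 to 12058 in Fast fish, 8358 to 10419 in Refed_3h fish and 8948 to 10158 in Refed_8h fish.

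**Figure D1:**
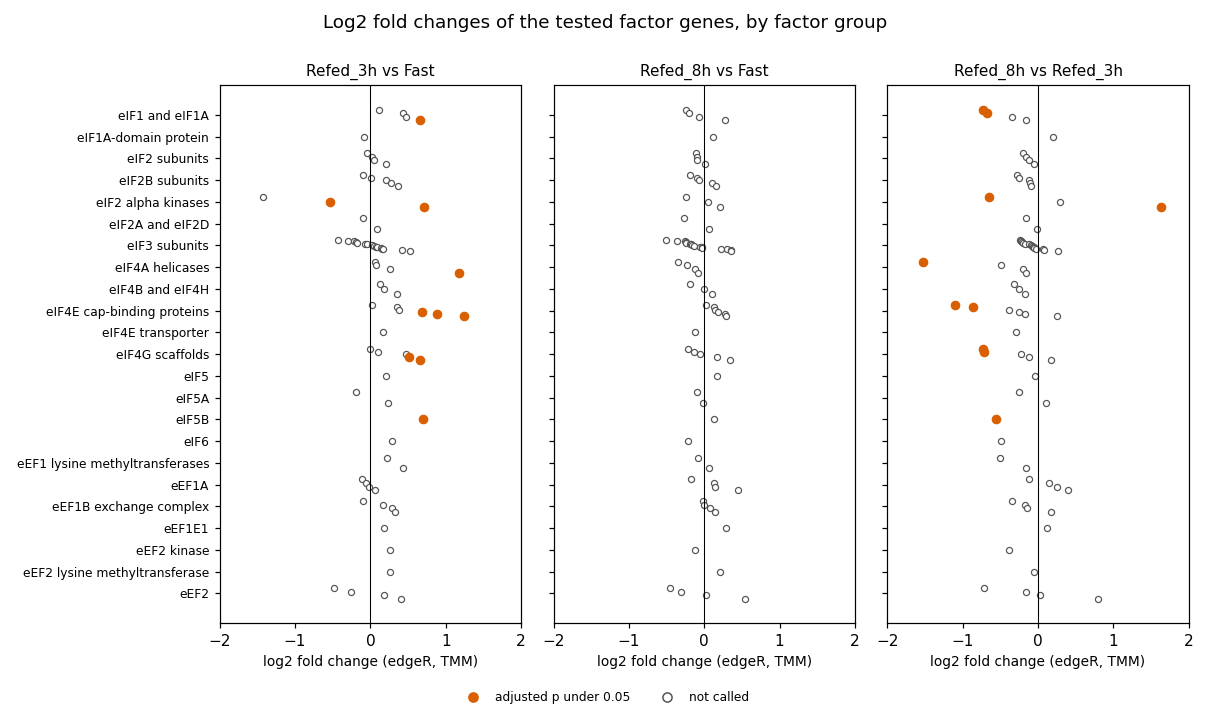
Log2 fold changes of the 76 tested factor genes (horizontal axis) in the 3 comparisons, by factor group (rows), from edgeR with TMM scaling. Filled points passed an adjusted p of 0.05 and open points did not. The filled points lie in the rows of eIF1, the eIF2 alpha kinases, eIF4A, eIF4E, eIF4G and eIF5B, and the panel of Refed_8h against Fast has none.

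Of the 7 genes of cap-binding proteins of the eIF4E family, 6 were tested, of which 3 were called in Refed_3h against Fast and 2 in Refed_8h against Refed_3h. Gene positions are those of the deposited table on GRCz11. eif4e1c (ENSDARG00000012274, chr13:18311410-18324469, plus strand), one of the eIF4E genes of fish, had 7.59, 11.3, 9.23 and 13.8 scaled CPM in Fast fish, 24.4, 28.4, 28.0 and 18.7 in Refed_3h fish and 10.7, 14.9, 10.2 and 10.7 in Refed_8h fish. Every Refed_3h fish lay above every fish of the other groups. The log2 fold change was 1.25 ± 0.20 (SE) for Refed_3h against Fast (edgeR adjusted p = 0.00563) and -1.10 ± 0.20 for Refed_8h against Refed_3h (adjusted p = 0.00792). The first of these calls held in all 23 alternatives tried, and the second was lost in 1.

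eif4ea (ENSDARG00000077012, chr14:43577164-43586150, minus strand), a cap-binding eIF4E, had 7.82, 7.78, 7.12 and 6.59 scaled CPM in Fast fish, 14.2, 13.6, 13.2 and 13.3 in Refed_3h fish and 8.30, 6.35, 8.66 and 6.57 in Refed_8h fish. The Refed_3h fish lay close together and apart from both other groups. It was 1.85-fold higher in Refed_3h than in Fast (log2 fold change 0.89 ± 0.14, edgeR adjusted p = 0.00503) and lower in Refed_8h than in Refed_3h (log2 fold change -0.86 ± 0.14, adjusted p = 0.00433). Each of these calls was lost in 3 of the 23 alternatives. eif4e2 (ENSDARG00000038585, chr2:45116819-45135618, minus strand), whose mammalian counterpart binds the cap without joining eIF4G and represses translation, had 12.6, 14.2, 18.1 and 12.8 scaled CPM in Fast fish, 21.7, 25.2, 22.1 and 23.6 in Refed_3h fish and 16.4, 20.5, 17.95 and 15.9 in Refed_8h fish. Again every Refed_3h fish was above the other fish, and the log2 fold change of Refed_3h against Fast was 0.68 ± 0.14 (edgeR adjusted p = 0.0186). Its difference between Refed_8h and Refed_3h, a log2 fold change of -0.39 ± 0.14, was not called (adjusted p = 0.121). The call of eif4e2 in Refed_3h against Fast was lost in 7 of the 23 alternatives.

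The most abundant gene of this group, eif4e3 (ENSDARG00000005078), a further cap-binding paralog, was not called. It had 37.2, 32.0, 50.2 and 38.1 TPM in Fast fish, 33.7, 28.4, 30.7 and 31.2 TPM in Refed_3h fish and 43.5, 36.2, 49.0 and 48.4 TPM in Refed_8h fish. The groups Refed_3h and Fast overlapped, and the 95% interval of the log2 fold change between them was -0.35 to 0.38. eif4enif1, the eIF4E transporter, which carries eIF4E into the nucleus and into P-bodies, had 5.60 ± 0.771 TPM in Fast, 4.96 ± 1.17 in Refed_3h and 4.83 ± 1.26 in Refed_8h (mean ± SD, n = 4 each), with overlapping ranges and no call.

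Of the 4 genes named as eIF4A helicases, among them eif4a3, only eif4a1a (ENSDARG00000092115, chr7:26510827-26518086, minus strand) was called. It had 30.4, 63.4, 40.0 and 41.3 scaled CPM in Fast fish, 107, 120.1, 94.4 and 74.5 in Refed_3h fish and 48.1, 32.2, 26.4 and 30.7 in Refed_8h fish. The Refed_3h fish were all above the others, and Fast replicate 2 was the highest of the remaining fish. The log2 fold change was 1.18 ± 0.24 for Refed_3h against Fast (edgeR adjusted p = 0.0179) and -1.53 ± 0.24 for Refed_8h against Refed_3h (adjusted p = 0.00347). For eif4a1a the first of these calls was lost in 5 of the 23 alternatives, and the second held in all 23. Its paralog eif4a1b (ENSDARG00000003032) was the more abundant helicase, with 444 ± 41.4 TPM among Fast fish, 365 ± 18.4 among Refed_3h fish and 379 ± 19.7 among Refed_8h fish, against 32.4 ± 7.05, 59.7 ± 16.8 and 24.7 ± 9.45 TPM for eif4a1a in the same order of groups. On the tested scale eif4a1b had a log2 fold change of 0.08 (95% interval -0.21 to 0.37) for Refed_3h against Fast and was not called. The summed TPM of the 4 helicase genes was 505 to 589 in Fast fish, 469 to 557 in Refed_3h fish and 438 to 509 in Refed_8h fish. Of the helicase cofactors eIF4B and eIF4H, 0 of 3 genes were called, and eif4h, the most abundant, had 43.4, 38.9, 39.0 and 41.0 TPM in Fast fish, 42.1, 41.5, 33.3 and 28.1 TPM in Refed_3h fish and 45.6, 34.2, 35.9 and 36.3 TPM in Refed_8h fish.

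The scaffolds of the eIF4G family gave 2 called genes of 5. eif4g1a (ENSDARG00000006200, chr2:16798652-16842699, plus strand), which joins the cap-binding protein and the helicase, had 61.1, 60.3, 81.2 and 63.3 scaled CPM in Fast fish, 119.8, 101, 113 and 85.5 in Refed_3h fish and 64.6, 56.7, 73.8 and 60.2 in Refed_8h fish. Fast replicate 3 was well above the other Fast fish and still below the lowest Refed_3h fish. The log2 fold change was 0.66 ± 0.15 for Refed_3h against Fast (edgeR adjusted p = 0.028) and -0.72 ± 0.15 for Refed_8h against Refed_3h (adjusted p = 0.0152). The first of these calls was lost in 10 of the 23 alternatives and the second in 4. eif4g2a (ENSDARG00000020377, chr7:66634167-66654025, plus strand), a family member that lacks the eIF4E-binding site in mammals, had 55.6, 59.2, 69.0 and 58.1 scaled CPM in Fast fish, 93.2, 80.4, 96.6 and 76.1 in Refed_3h fish and 51.9, 50.7, 53.4 and 52.2 in Refed_8h fish. Every Refed_3h fish was above the Fast fish, and every Refed_8h fish was below them. The difference between Refed_8h and Fast, a log2 fold change of -0.22 ± 0.12, was not called (edgeR adjusted p = 0.491). It was called as higher in Refed_3h than in Fast (log2 fold change 0.52 ± 0.12, adjusted p = 0.0303) and as lower in Refed_8h than in Refed_3h (-0.73 ± 0.12, adjusted p = 0.00434). For eif4g2a the first of these calls was lost in 12 of the 23 alternatives and the second in 3. Its paralog eif4g2b had 44.5 ± 3.34 TPM among Fast fish, 37.4 ± 5.46 among Refed_3h fish and 38.1 ± 6.04 among Refed_8h fish, and was not called.

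**Figure D2:**
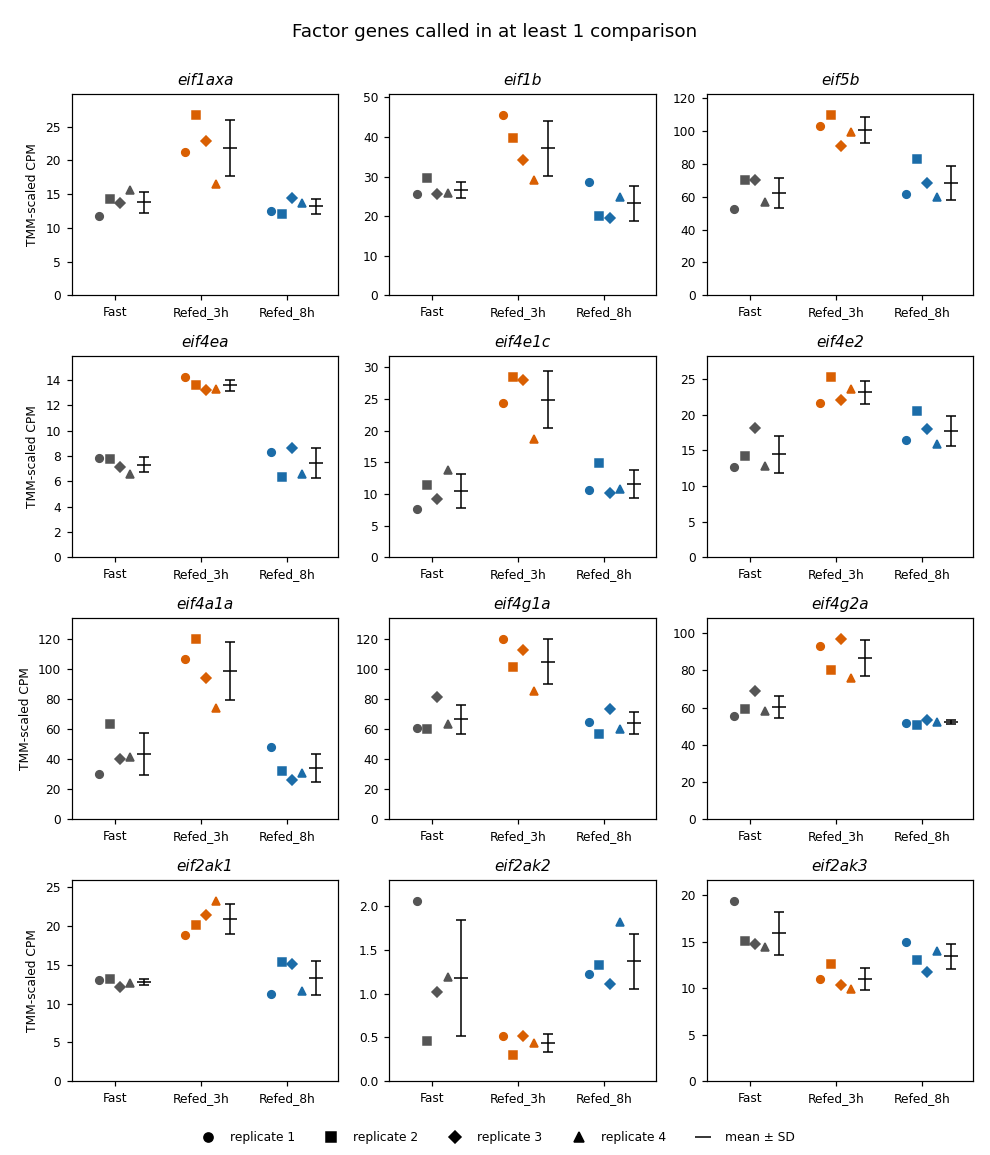
Scaled CPM (vertical axis, starting at 0) of the 12 factor genes called in at least 1 comparison, for each of the 4 fish in Fast, Refed_3h and Refed_8h. Symbols mark the replicates and bars the mean ± SD. In the panels of the 9 genes that were higher in Refed_3h, all 4 Refed_3h fish lie above all 4 Fast fish, and in that of eif2ak3 they lie below them. The genes were chosen by the test on these same values, so the separation adds no support to the calls. How often the groups separate over all tested genes was not counted.

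Since the scales gave different medians, the share of 1 paralog in the summed TPM of its family was also taken, which does not depend on how a library was scaled. eif4a1a made up 5.13%, 9.00%, 6.26% and 7.06% of eif4a1a and eif4a1b in Fast fish, 15.2%, 17.0%, 14.7% and 9.08% in Refed_3h fish and 8.70%, 5.30%, 4.44% and 5.69% in Refed_8h fish. Every Refed_3h fish was above every other fish, although Refed_3h replicate 4 exceeded Fast replicate 2 by little. The share of eif4e1c among eif4e1c, eif4ea and eif4eb was 20.6% ± 3.53 in Fast, 29.9% ± 3.62 in Refed_3h and 21.4% ± 4.49 in Refed_8h (mean ± SD, n = 4 each). Of these shares the Fast fish had 16.4% to 25.0%, the Refed_3h fish 25.7% to 34.2% and the Refed_8h fish 15.3% to 26.1%, so Refed_3h overlapped Refed_8h by 1 fish and did not overlap Fast. eif4g2a took 35.4% to 39.3% of eif4g2a and eif4g2b in Fast fish, 41.5% to 51.3% in Refed_3h fish and 35.2% to 37.3% in Refed_8h fish, and the Refed_3h fish did not overlap the others. For eif4ea among the same eIF4E genes the groups overlapped, with 18.5% to 22.9% in Refed_3h fish, against 12.6% to 21.5% in Fast fish. Refed_3h and Fast overlapped for 3 further called genes, of which eif1b was called only in Refed_8h against Refed_3h. eif4g1a took 56.3% to 65.9% of eif4g1a, eif4g3a and eif4g3b in Refed_3h fish, against 50.5% to 57.3% in Fast fish. eif1axa took 21.0% to 32.5% of eif1axa and eif1axb in Refed_3h fish, against 21.2% to 26.4% in Fast fish. eif1b took 9.00% to 11.8% of eif1 and eif1b in Refed_3h fish, against 7.93% to 10.2% in Fast fish. In Refed_8h fish the shares were 43.7% to 56.5% for eif4g1a, 18.6% to 20.9% for eif1axa and 6.81% to 11.8% for eif1b. Refed_8h and Refed_3h overlapped for eif4g1a and eif1b, and lay just apart for eif1axa. The genes were chosen as called on these same fish, so their shares add no support to the calls. These shares were not tested. Reads had 36 bases, and how reads that match several genes were treated is not given, so the counts of near-identical paralogs are uncertain.

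**Figure D3:**
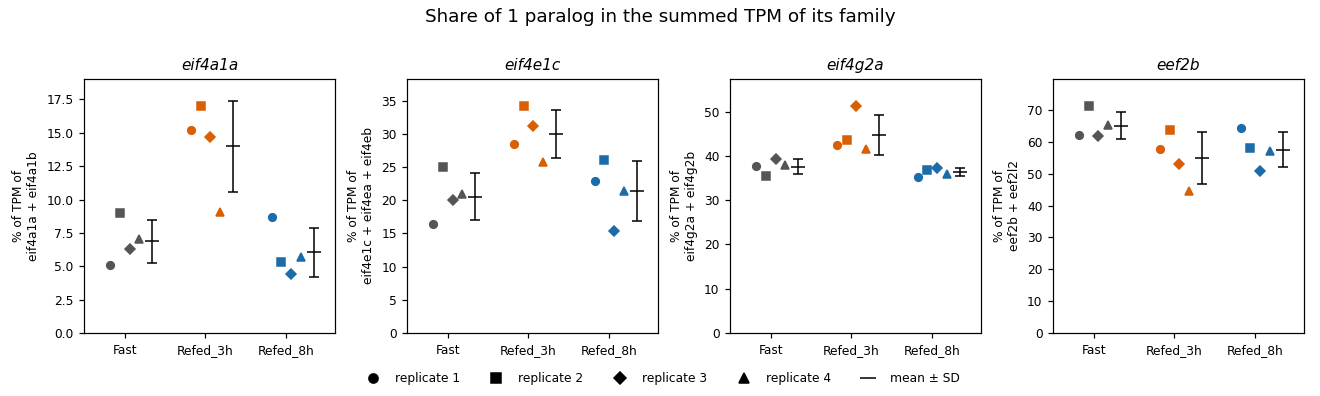
Share of eif4a1a, eif4e1c, eif4g2a and eef2b in the summed TPM of the paralogs named on each vertical axis (percent), per fish, with mean ± SD. The Refed_3h fish reach 9.08% to 17.0% for eif4a1a, above all Fast and Refed_8h fish, and the eef2b share overlaps between the groups. All but eef2b were called on these same fish, so their separation adds no support to the calls.

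Of the small factors that prepare the 40S subunit, eif1axa and eif1b were called. eif1axa (ENSDARG00000029003, chr5:24002598-24008997, minus strand) encodes an eIF1A, which supports scanning for the start codon. It had 11.8, 14.2, 13.6 and 15.6 scaled CPM in Fast fish, 21.2, 26.7, 22.9 and 16.5 in Refed_3h fish and 12.5, 12.1, 14.5 and 13.7 in Refed_8h fish. Refed_3h replicate 4 was the lowest of its group and close to Fast replicate 4. The gene was higher in Refed_3h than in Fast (log2 fold change 0.66 ± 0.15, edgeR adjusted p = 0.029) and lower in Refed_8h than in Refed_3h (-0.73 ± 0.15, adjusted p = 0.0153). The first of these calls was lost in 11 of the 23 alternatives and the second in 3. A gene model of 0 TPM overlaps eif1axa on the other strand. eif1b (ENSDARG00000029445, chr24:32517915-32522655, minus strand), a paralog of the start codon factor eIF1, had 25.6, 29.7, 25.5 and 25.9 scaled CPM in Fast fish, 45.5, 39.7, 34.1 and 29.2 in Refed_3h fish and 28.7, 20.0, 19.5 and 25.0 in Refed_8h fish. Refed_3h replicate 4 was below Fast replicate 2, and the difference between Refed_3h and Fast, a log2 fold change of 0.48 ± 0.16, was not called (adjusted p = 0.105). Only the comparison of Refed_8h with Refed_3h gave a call (log2 fold change -0.67 ± 0.16, edgeR adjusted p = 0.0294), which was lost in 10 of the 23 alternatives. The most abundant gene of the group, eif1, had 526, 562, 543 and 579.8 TPM in Fast fish, 542, 530.4, 427 and 395 TPM in Refed_3h fish and 452, 446, 409.9 and 439 TPM in Refed_8h fish, and was not called. eif1ad, whose protein holds an eIF1A domain, had 17.9 ± 3.99 TPM among Fast fish, 13.5 ± 1.96 among Refed_3h fish and 18.3 ± 2.33 among Refed_8h fish, also with no call.

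eif5b (ENSDARG00000016548, chr1:45925150-45959721, plus strand), the only gene of the GTPase that joins the ribosomal subunits, had 52.5, 70.1, 70.2 and 56.6 scaled CPM in Fast fish, 103, 109, 91.0 and 99.4 in Refed_3h fish and 61.8, 82.8, 68.6 and 59.7 in Refed_8h fish. All Refed_3h fish were above the fish of the other groups. The log2 fold change was 0.69 ± 0.15 for Refed_3h against Fast (edgeR adjusted p = 0.0207) and -0.56 ± 0.15 for Refed_8h against Refed_3h (adjusted p = 0.0387). The first of these calls was lost in 8 of the 23 alternatives and the second in 14. The gene eif5b overlaps arhgef7b on the same strand, a gene of 9.45 TPM against 15.1 TPM for eif5b. Reads of the shared part therefore cannot be assigned with certainty. eif5, which stimulates GTP hydrolysis by eIF2, had 50.7, 50.1, 42.0 and 44.4 TPM in Fast fish, 41.5, 50.6, 39.6 and 38.9 TPM in Refed_3h fish and 45.8, 54.6, 41.2 and 53.0 TPM in Refed_8h fish, with no call. Neither was there one for eif5a, the hypusine-bearing factor that helps the ribosome through difficult peptide bonds, which had 674, 622, 742 and 631 TPM in Fast fish, 588, 635, 700.2 and 552 TPM in Refed_3h fish and 609.7, 566, 582 and 696 TPM in Refed_8h fish. eif6, which keeps the large subunit from joining too early, had 26.1 ± 0.916 TPM among Fast fish, 25.2 ± 5.12 among Refed_3h fish and 21.1 ± 3.01 among Refed_8h fish. In Refed_8h against Refed_3h its log2 fold change was -0.49 ± 0.14, just short of a call (edgeR adjusted p = 0.0592).

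The rule found 3 genes of eIF2 alpha kinases, which slow initiation by phosphorylating eIF2, and none named eif2ak4. The 3 genes found did not move together. eif2ak1 (ENSDARG00000093182, chr12:17591786-17602958, minus strand), the kinase that responds to lack of haem, had 13.1, 13.1, 12.2 and 12.7 scaled CPM in Fast fish, 18.8, 20.2, 21.5 and 23.2 in Refed_3h fish and 11.2, 15.4, 15.1 and 11.6 in Refed_8h fish. It was higher in all Refed_3h fish than in any other fish. Against Fast the log2 fold change was 0.71 ± 0.14 (edgeR adjusted p = 0.0126). In Refed_8h against Refed_3h the log2 fold change was -0.65 ± 0.14 (adjusted p = 0.0141). Each of these calls was lost in 4 of the 23 alternatives. The gene eif2ak1 overlaps usp42 on the same strand, a gene of 2.18 TPM against 7.45 TPM. Markers of red blood cells, the cells richest in haem, summed to 1152 to 5139 TPM in Refed_3h fish, against 942 to 1591 TPM in Fast fish, with 0 of 7 called. All 7 had positive log2 fold changes there, with a median of 1.32. In Refed_8h against Refed_3h 6 of the 7 were negative, with a median of -0.97 and 0 called. The part of these markers in the value of eif2ak1 was not tested.

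eif2ak3 (ENSDARG00000062139, chr13:13945218-14004546, plus strand), the kinase of the endoplasmic reticulum known as PERK, moved the other way. It had 19.3, 15.0, 14.8 and 14.4 scaled CPM in Fast fish, 11.0, 12.6, 10.3 and 9.94 in Refed_3h fish and 14.9, 13.0, 11.8 and 13.9 in Refed_8h fish. Every Refed_3h fish was below every Fast fish, also in TPM, and Fast replicate 1 was the highest of all. The log2 fold change of -0.54 ± 0.14 for Refed_3h against Fast was just past the threshold (edgeR adjusted p = 0.0468) and lost its call in 16 of the 23 alternatives. eif2ak2 (ENSDARG00000068729, chr13:50207943-50234122, minus strand), the kinase that responds to double-stranded RNA, was the least abundant of the called genes, with 7 to 36 counts per Fast fish, 5 to 7 per Refed_3h fish and 16 to 36 per Refed_8h fish. It had 2.05, 0.462, 1.02 and 1.19 scaled CPM in Fast fish, 0.518, 0.298, 0.512 and 0.435 in Refed_3h fish and 1.22, 1.33, 1.11 and 1.82 in Refed_8h fish. The Refed_8h fish were all above the Refed_3h fish, the Fast fish were spread over both, and the log2 fold change of Refed_8h against Refed_3h was 1.63 ± 0.44 (edgeR adjusted p = 0.0431), a call lost in 14 of the 23 alternatives. For Refed_3h against Fast the log2 fold change of eif2ak2 was -1.42 ± 0.44, which edgeR did not call (adjusted p = 0.076) and which was called by DESeq2 and without Fast replicate 2. Leukocyte markers, among which 5 of 13 were higher in Refed_8h than in Refed_3h, summed to 2772 to 4955 TPM in Refed_8h fish, against 2042 to 2886 TPM in Refed_3h fish. Their part in the value of eif2ak2 was not tested.

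Neither eIF2, its exchange factor eIF2B nor eIF3 gave a call in edgeR. Of the 4 genes of eIF2 subunits, eif2s2 was the most abundant, with 192, 187, 213 and 210.4 TPM in Fast fish, 191, 220.1, 151 and 169.9 TPM in Refed_3h fish and 178, 172, 191 and 216 TPM in Refed_8h fish. The median log2 fold change of the eIF2 subunits was 0.04 for Refed_3h against Fast, with single values of -0.05 to 0.21. eif2b2, the most abundant of the 5 eIF2B genes, had 37.8, 39.4, 39.9 and 30.0 TPM in Fast fish, 36.7, 53.9, 24.0 and 22.1 TPM in Refed_3h fish and 35.5, 31.2, 30.1 and 33.8 TPM in Refed_8h fish, where Refed_3h replicate 2 was the highest of all fish and replicate 4 the lowest. Of the factors that can deliver the initiator tRNA in place of eIF2, eif2a had 20.5 ± 3.35 TPM among Fast fish, 15.1 ± 3.85 among Refed_3h fish and 15.8 ± 1.68 among Refed_8h fish. In the eIF3 complex, the large scaffold on the 40S subunit, 16 of 18 genes were tested. Their log2 fold changes ranged between -0.43 and 0.53 for Refed_3h against Fast, between -0.51 and 0.36 for Refed_8h against Fast, and between -0.23 and 0.26 for Refed_8h against Refed_3h. For Refed_3h against Fast DESeq2 called eif3jb higher and eif3s10 lower, and limma on log2(TPM + 1) called eif3ba, eif3c, eif3s10 and eif3s6ip lower. eif3f, the most abundant subunit, had 343, 336, 290.1 and 306 TPM in Fast fish, 274, 317, 238 and 269 TPM in Refed_3h fish and 299, 295, 273 and 289 TPM in Refed_8h fish.

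The elongation factors, which include the 3 most abundant members, gave 0 calls of 17 in edgeR in each comparison. At an unadjusted p under 0.05 were 2, 1 and 3 of them in Refed_3h against Fast, Refed_8h against Fast and Refed_8h against Refed_3h. Of all 16745 tested genes 3828, 2169 and 3750 were, a larger share in each comparison. DESeq2 called none of the elongation factors. eef1a1l1 (ENSDARG00000020850), the main eEF1A gene, had 2044, 2095, 1694 and 1847 TPM in Fast fish, 1432, 1757, 1334 and 1306 TPM in Refed_3h fish and 1672, 1560.4, 1462 and 1658 TPM in Refed_8h fish. It made up 99.5% to 99.7% of the eEF1A TPM in Refed_3h fish, against 99.5% to 99.7% in Fast fish, while eef1a2, the form typical of mature muscle in mammals, averaged 2.47 TPM over the 12 fish. On the tested scale the log2 fold change of eef1a1l1 was -0.06 (95% interval -0.37 to 0.26) for Refed_3h against Fast. A gene model of 136 TPM overlaps eef1a1l1 on the same strand, so their reads are uncertain. eef1g, a subunit of the complex that recharges eEF1A with GTP, had 1765, 1476, 1381 and 1416 TPM in Fast fish, 1268, 1404, 1265 and 1349.6 TPM in Refed_3h fish and 1338, 1446, 1334 and 1429 TPM in Refed_8h fish, with overlapping groups.

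eef2b (ENSDARG00000100371), the more abundant gene of the translocase eEF2, had the lowest log2 fold change of the 17 elongation factors for Refed_3h against Fast. It had 1348, 1467, 1109 and 1044 TPM in Fast fish, 690.4, 951, 655 and 545 TPM in Refed_3h fish and 1101, 807, 646 and 863 TPM in Refed_8h fish. In TPM every Refed_3h fish was below every Fast fish, whereas in scaled CPM these groups overlapped. The log2 fold change of Refed_3h against Fast was -0.48 ± 0.18, which edgeR did not call (adjusted p = 0.131) and limma on log2(TPM + 1) did. For Refed_8h against Fast it was -0.46 ± 0.18, also not called (edgeR adjusted p = 0.281). There every Refed_8h fish was below every Fast fish in scaled CPM, whereas in TPM these groups overlapped. How often groups separate over all tested genes was not counted. The share of eef2b in eef2b and eef2l2 was 44.4% to 63.7% in Refed_3h fish, against 61.8% to 71.3% in Fast fish, with an overlap. The regulators of elongation were not called either. eef2k, the kinase that inhibits eEF2, had 54.1, 28.8, 21.8 and 34.9 TPM in Fast fish, 36.8, 28.0, 30.1 and 32.8 TPM in Refed_3h fish and 30.7, 26.6, 26.7 and 33.8 TPM in Refed_8h fish, and the highest and the lowest fish of all were both Fast fish. The methyltransferases eef1akmt1 and eef2kmt averaged 7.33 and 2.72 TPM, and eef1e1, a scaffold protein of the tRNA synthetase complex, 5.58 TPM.

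The called members were among the less abundant ones. Of the 21 tested members with a mean of at least 100 TPM, 0 were called in any comparison, and of the 55 below it 10 were called in Refed_3h against Fast and 10 in Refed_8h against Refed_3h. Over all tested genes the share called in Refed_3h against Fast was 3.21% at or above 100 TPM and 4.97% below it, and in Refed_8h against Refed_3h it was 2.14% and 6.59%. In Refed_3h against Fast the median SE on the log2 scale was 0.15 for the members of at least 100 TPM and 0.16 for those below it. For all tested genes it was 0.19 and 0.26. Why no abundant member was called was not tested. For 63 of the 66 members not called in that comparison the 95% interval of the log2 fold change lay within a 2-fold change either way. Only 2 of the 10 called genes changed by at least 2-fold themselves. Such an interval therefore does not show that a member changed less than the called genes.

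**Figure D4:**
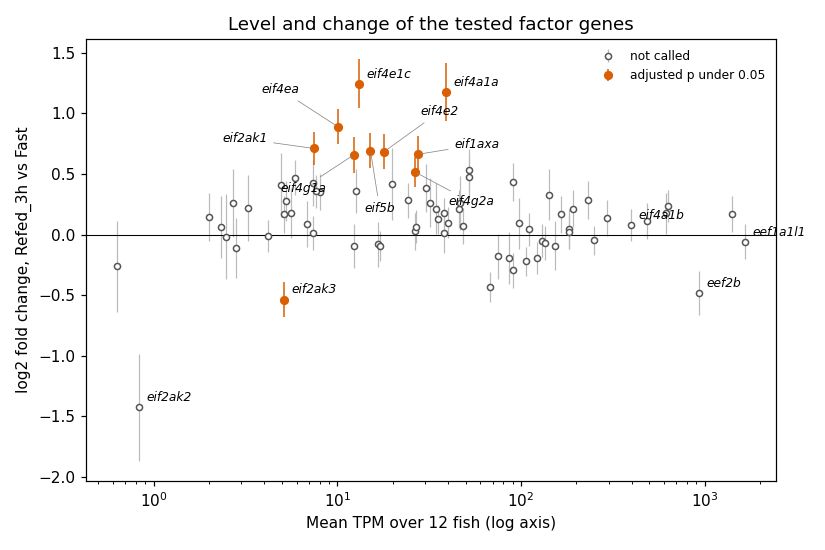
Log2 fold change of Refed_3h against Fast (vertical axis, bars are SE) against the mean TPM over the 12 fish (log axis) for the 76 tested factor genes. The 10 called genes, filled, all have a mean under 100 TPM. Of the 3 most abundant genes, eef1a1l1 lies at -0.06, eef1g at 0.17 and eef2b at -0.48.

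The calls for Refed_3h against Fast changed when single fish were left out and when marker scores entered the model. Of these 10 calls 3 remained without Fast replicate 1, 4 without Refed_3h replicate 1, 5 without Fast replicate 4 and 6 without Refed_3h replicate 3. Muscle markers summed to 145427 to 193672 TPM in Refed_3h fish, against 122563 to 154394 TPM in Fast fish, and 6 of 24 were higher, none of the list being at 0 TPM in all fish. Skin markers summed to 16818 to 28473 TPM in Refed_3h fish, against 26883 to 33737 TPM in Fast fish. With a muscle marker score as a covariate, chosen after these sums were seen, eif4e1c, eif4a1a and eif4ea kept their calls, with a log2 fold change of 1.46 for eif4a1a and 0.93 for eif4ea. The other 7 lost them, with log2 fold changes between 0.51 for eif4g2a and 0.83 for eif4e2 in the 6 positive ones and of -0.40 for eif2ak3. In that fit the median of the members was 0.16, as without the score, and 134 of all genes were called, against 821 without it. With a skin marker score as a covariate 4 of the 10 kept theirs, and in both fits all 10 kept their direction. On the scale of log2(TPM + 1) only eif4e1c and eif2ak3 kept theirs, all 10 kept their direction, and in TPM the Refed_3h fish overlapped the Fast fish for each of the 9 genes called higher. Of the 9 genes called lower in Refed_8h than in Refed_3h, eif2ak1, eif4e1c and eif4ea did not overlap in TPM. They were chosen by the test on these same fish, so this separation adds no support to the calls. How often these groups separate in TPM over all tested genes was not counted. Without Refed_8h replicate 4 the 10 calls of Refed_8h against Refed_3h became 5.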

How the data were processed

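The 12 libraries were made from poly(A) RNA of single fish and sequenced as paired-end reads of 36 bases. The authors mapped them to GRCz11 with CLC Genomics Workbench and deposited 1 table of 25281 genes. Its counts per gene and fish, as deposited, are whole numbers and not normalized. Its TPM, computed by the authors, sum to the same total in every fish. Not given in the sources used here are the release of the gene annotation, how multi-matched reads were handled, and whether counting was stranded. The 24 columns of RPKM and CPM were not used, nor were the columns of the authors' own comparisons, which hold fold changes, p-values and adjusted p-values.

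Counts were filtered with filterByExpr, and TMM factors ran between 0.790 and 1.21. The 3 groups were modelled together in edgeR 4.0.16 (R 4.3.3) with the robust quasi-likelihood fit, and Benjamini-Hochberg adjustment was made over 16745 genes. A standard error was obtained as the size of the log2 fold change over the root of F, and the 95% interval used the degrees of freedom of the fit. The fit was tested on simulated data before use. Both counting error and the 4 fish per group limit the precision. Alternatives were RLE size factors, DESeq2 1.42.0, unfiltered counts, a fit of the 2 groups compared, a 2-fold minimum, the replicate number as a block, limma 3.58.1 on log2(TPM + 1) and log2(TPM + 0.1) for genes averaging 0.5 TPM or more and on log2(TPM + 1) with no filter, marker scores as covariates, the replicate numbers 1 and 2 against 3 and 4 as a term, and each library left out.

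The members, their 23 factor groups and the gene lists were chosen with earlier results of these data known. Values were given for each called member and for the member of highest mean TPM in each group, and eif3s10, eif3s6ip, eef1a2 and other genes outside this rule were chosen after seeing their values. A table of gene names held 78 of the member IDs. Promoter and protein sequences were not used here.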

Additional observations from a re-analysis of the deposited data

Results flagged for a closer look

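Among 99 groups of 4 fish, the 3 groups for each of 33 named genes on the tested scale, 4 had 1 fish far from the other 3, where chance gives about 1 in 20. Fast replicate 3 had 81.2 scaled CPM of eif4g1a, against 60.3 to 63.3 in the other Fast fish. Fast replicate 1 had 19.3 scaled CPM of eif2ak3, where the other Fast fish had 14.4 to 15.0. In Refed_8h, replicate 2 had 14.9 scaled CPM of eif4e1c, and the others 10.2 to 10.7. For eif1b, Fast replicate 2 had 29.7 scaled CPM, the other Fast fish 25.5 to 25.9. These are 4 different genes and 4 different fish, and each was the highest of its group. Without Fast replicate 1 the log2 fold change of eif2ak3 for Refed_3h against Fast was no longer called. That call was also lost without each other Fast fish and without each Refed_8h fish, so its loss was not particular to the flagged fish.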

How the results depend on the processing

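All 20 calls of single factor genes kept their direction in all 23 alternatives, and 2 kept their call in all of them, eif4e1c in Refed_3h against Fast and eif4a1a in Refed_8h against Refed_3h. Of 460 alternative values of these results 132 lost the call. Of 1816 alternative values of the 79 named results that were not called, 8 gained a call and 160 changed sign. In what follows, the comparisons are Refed_3h against Fast, Refed_8h against Fast and Refed_8h against Refed_3h, where edgeR called 10, 0 and 10 factor genes, 821, 234 and 1074 of all genes, and 3, 1 and 7 genes of the other translation lists. The cause of a difference was not tested. The replicate number as a block gave 10, 0 and 10 factor genes and changed no call of a factor gene. In the main test fish of the same number were not treated as pairs. Their deviations correlated by -0.19 to 0.27, against -0.28 to 0.19 for fish of different numbers in different groups. Of the 12 same-number pairs 7 were over 0.1, a larger share than among the pairs of different numbers. Of the 12 libraries 5 were closest to their own number in both other groups. Whether fish of the same number had something in common was not tested. DESeq2 called 14 factor genes (3 of them lower), 2 (both lower) and 11, with 1697, 655 and 1776 of all genes and 9, 2 and 14 of the other lists. With no filter on low counts 0 factor genes were lower in Refed_3h than in Fast and 0 higher in Refed_8h than in Refed_3h. A fit of the 2 groups compared gave 0 factor genes lower in Refed_3h than in Fast, and 1, 0 and 4 genes of the other lists. With a minimum of 2-fold 2 factor genes were higher and 0 lower in Refed_3h than in Fast, and 3 were called in Refed_8h against Refed_3h, 2 of them lower. With limma on log2(TPM + 1), 1 factor gene was higher and 6 were lower in Refed_3h than in Fast, and 0 were higher and 2 lower in Refed_8h than in Refed_3h, with 1241 and 682 of all genes and 6 and 0 of the other lists. On log2(TPM + 0.1) these were 1, 6, 0 and 2 factor genes, 1333 of all genes in the first comparison, and 6 and 1 of the other lists. On log2(TPM + 1) with no filter 3 factor genes were called in Refed_3h against Fast (1 higher, 2 lower) and 1 in Refed_8h against Refed_3h (0 higher, 1 lower), with 468 of all genes there, 0 of the other lists there and 0 of them in Refed_8h against Fast. The skin score as a covariate gave 5 factor genes in Refed_3h against Fast (5 higher, 0 lower), 366 of all genes and 1 of the other lists, and in Refed_8h against Fast 152 of all genes and 0 of the other lists. The muscle score, chosen after seeing the data, gave 3 factor genes (3 higher, 0 lower), 134 of all genes and 0 of the other lists in Refed_3h against Fast, and 0 factor genes higher and 661 of all genes in Refed_8h against Refed_3h. The term for replicate numbers 1 and 2 against 3 and 4 gave 6 and 2 genes of the other lists in the first 2 comparisons.

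With each library left out in turn, Refed_3h against Fast gave 3 to 9 factor genes (3 to 9 higher, 0 to 1 lower), 264 to 805 of all genes and 1 to 4 of the other lists. Refed_8h against Fast gave 0 to 0 factor genes, 150 to 229 of all genes and 0 to 1 of the other lists. Refed_8h against Refed_3h gave 5 to 10 factor genes (0 to 1 higher, 5 to 9 lower), 459 to 1168 of all genes and 2 to 7 of the other lists, and the 1 factor gene called higher there, eif2ak2, was lost without Fast replicate 4 and without each of the 8 refed fish. Depth limits eif2ak2, with 5 to 7 counts per Refed_3h fish.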

Other observations

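Of the 143 tested genes of the other translation lists, 2.1% were called in Refed_3h against Fast, 0.699% in Refed_8h against Fast and 4.9% in Refed_8h against Refed_3h, where the shares of all tested genes were 4.9%, 1.4% and 6.41%. In Refed_3h against Fast the termination factor etf1b was higher (log2 fold change 0.68 ± 0.13 (SE), edgeR adjusted p = 0.0153) and eif4ebp3, an inhibitor that binds eIF4E, was lower (-1.01 ± 0.26, adjusted p = 0.0423), with 9.34 ± 2.52 TPM in Refed_3h and 23.8 ± 8.88 TPM in Fast (mean ± SD, n = 4 each). Among the 78 cytosolic ribosomal protein genes 1 was called, the ribosomal-protein-like rpl7l1 (0.59 ± 0.15, adjusted p = 0.0389). Of these 78 genes 75 had positive log2 fold changes there and 3 negative ones. Their median was 0.20, against 0.16 for the factor genes, so a small upward shift was not particular to the factors. In Refed_8h against Refed_3h 3 of them were positive and 75 negative, with a median of -0.15, against -0.16 for the factor genes. In Refed_3h against Fast 0 of 24 aminoacyl-tRNA synthetase genes were called, with 5 at an unadjusted p under 0.05. There 3828 of all 16745 tested genes had such a p, a similar share. Larger shares had it among eIF2 alpha phosphatases and eIF4E-binding proteins (6 of 8), termination and recycling (5 of 8) and hypusine and diphthamide enzymes (3 of 9). Smaller shares had it among mitochondrial translation factors (2 of 11) and ribosomal proteins (4 of 78). In Refed_8h against Refed_3h 12 of the 24 synthetase genes had such a p, a larger share than the 3750 of all tested genes. Of the ribosomal protein genes 2 of 78 had it there. Of the poly(A) binding proteins, which bridge the mRNA tail and eIF4G, 0 of 5 tested genes were called in any comparison, and 0 reached an unadjusted p under 0.05. Of all 16745 tested genes 2169 to 3828 reached it, depending on the comparison.

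In Refed_8h against Refed_3h 7 genes of these lists were called, all lower. Of 8 tested termination and recycling genes 3 were called, etf1b (-0.86 ± 0.13, edgeR adjusted p = 0.00313), abce1 (-0.68 ± 0.17, adjusted p = 0.0349) and gspt1l (-0.61 ± 0.13, adjusted p = 0.0179). dph5 (-0.78 ± 0.19, adjusted p = 0.0284) is an enzyme of the diphthamide that eEF2 carries. The mitochondrial elongation factor gene tsfm was lower too (-0.73 ± 0.19, adjusted p = 0.0413), as was rpl7l1 (-0.71 ± 0.15, adjusted p = 0.015). mars1, the methionyl-tRNA synthetase, was lower in Refed_8h than in Refed_3h (-0.43 ± 0.11, edgeR adjusted p = 0.0413). It was the only gene of these lists called in Refed_8h against Fast (-0.59 ± 0.11, edgeR adjusted p = 0.0196), with 11.9 ± 1.66 TPM in Refed_8h and 19.2 ± 1.53 TPM in Fast.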
